A study of Mus musculus with 36 samples.

Results

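The 9 genes described here encode the signalling line of the interleukin-7 (IL-7) receptor in developing B cells: the receptor chain Il7r, the kinases Jak1 and Jak3, the transcription factors Stat5a and Stat5b, the feedback inhibitors Cish, Socs2 and Socs3, and the kinase gene Pim1. They were taken by gene symbol from 3 tables of mouse RNA-seq counts, which list 46078, 35896 and 18721 rows, and each of the 9 had 1 row in every table. All 9 passed the filter on low values in each table, among 17649, 13345 and 13651 genes tested. Pax5 peaks from chromatin immunoprecipitation (ChIP-seq) were read over each gene body and the 10 kb upstream of its start.

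IL-7 binds a receptor made of the IL-7 receptor alpha chain, encoded by Il7r, and the common gamma chain, encoded by Il2rg. JAK1 sits on the alpha chain and JAK3 on the gamma chain. Once active they phosphorylate STAT5A and STAT5B, which enter the nucleus and bind DNA at the motif TTCNNNGAA. CISH, SOCS2 and SOCS3 are products of cytokine-induced genes that damp the same receptors and kinases, and PIM1 is a serine/threonine kinase that favours survival and growth. In mouse bone marrow IL-7 sustains pro-B cells, and the response to it declines as cells become small pre-B cells.

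The first RNA table held pro-B cells (IgM-CD43+) and pre-B cells (IgM-CD43-) sorted from the bone marrow of 2 wild-type (WT) and 2 Sirt7-/- mice on the 129Sv background, with 1 library per stage and mouse. SIRT7 is a nuclear deacetylase, and the Sirt7-/- mice lack part of the gene in the germline, in every cell type. The second table held Pax5-/- pro-B cells of C57BL/6 mice, which lack the factor that commits cells to the B lineage, transduced with empty vector (EV) or a retrovirus for Pax5 WT, Pax5 K198Q or Pax5 K198R. The labels give bone marrow as the source of these cells and the study's methods fetal liver. Pax5 K198Q carries a glutamine in place of one lysine to imitate its acetylation, and Pax5 K198R an arginine that cannot be acetylated. The third table held cultured pro-B cells, WT with EV and Sirt7-/- with EV, Pax5 WT or Pax5 K198R, from 129Sv mice by the study's methods. All transduced cells grew on OP9 stromal cells with IL-7 at 10 ng/mL, SCF and FLT3-L, and were sorted for the vector's marker. Each group had 2 libraries, and the ChIP-seq had 2 peak lists for each Pax5 form in Pax5-/- cells.

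Whole reads recovered from the sorted table came to between 50004827 and 55536608 per library, and the totals of all 24 libraries lay between 27814214 and 54896194 normalized counts. The tables were normalized separately, so that tests were run within a table, and levels set across tables are descriptions. These are bulk samples, in which fewer cells expressing a gene and less RNA per cell cannot be told apart. Sorted libraries were tied to mice by their labels. Replicates were, by the study's methods, made on separate days, and whether a replicate number in the cultures marks 1 day across groups is not given in the sources used here. Tests with that number as a block are given beside those without it where a call changed.

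The genotype and vector checks came first. Sirt7 stood at 2692 and 2533 normalized counts in WT pro-B cells against 363 and 366 in Sirt7-/- pro-B cells, at 5613 and 5219 in WT pre-B cells against 1066 and 821 in Sirt7-/- pre-B cells, and in the third table at 1324 and 905 with WT EV against 325 to 407 in the Sirt7-/- groups. The remaining reads in Sirt7-/- cells were not assigned to exons here. Pax5 in the libraries labelled Pax5-/- read 2201 and 2103 with EV, 6458 and 6152 with Pax5 WT, 8918 and 8963 with Pax5 K198Q and 21162 and 16610 with Pax5 K198R. These reads were not placed inside or outside the deleted part of the gene either. The 3 forms were therefore compared at unequal transcript levels, with K198R highest, and its part in any difference between the forms was not tested. In the Sirt7-/- cells of the third table, 0 of the 2 check genes, Sirt7 and Pax5, passed limma's test with Pax5 WT against EV. With K198R against EV 0 of the 2 passed as well. A raised Pax5 transcript level with either vector was thus not detected in that table.

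For the sorted cells the cell type field of the labels goes against the titles, naming each replicate 1 a pro-B and each replicate 2 a pre-B sample, and the titles were used. Il2ra, which marks pre-B cells, stood between 16329 and 26038 in the 4 libraries titled pre-B and between 1593 and 3760 in the 4 titled pro-B. Of 6 pre-B markers 5 rose and 0 fell between the stages in each genotype, and of 6 pro-B markers 5 fell in each. The exceptions were Cd93, a pro-B marker that rose in WT pre-B cells (67379 and 71258 against 45287 and 48501 in pro-B, log2 0.56), and Igkc, a pre-B marker. Igkc stood at 439264 and 387073 in Sirt7-/- pro-B and at 269168 and 246367 in Sirt7-/- pre-B cells, and its difference did not pass.

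Markers of other cells also moved between the stages. Of 10 T cell genes 8 fell and 0 rose in WT pre-B cells (median log2 -4.92) and 6 fell and 0 rose in Sirt7-/- pre-B cells (-2.49). Their sum, led by Lck, ran from 7214 to 7976 in the 4 pro-B libraries and from 3134 to 3985 in the 4 pre-B libraries, where Cd3e and Cd3g were at 0. Of 8 myeloid genes 3 fell and 1 rose in each genotype. Their sum was 33660 and 24580 in WT pro-B against 15226 and 14901 in WT pre-B cells, and overlapped between the stages in Sirt7-/- mice. Of 6 NK cell genes 1 fell in WT and 0 in Sirt7-/- mice, and of 5 erythroid genes 1 fell in each. Whether this RNA came from other cells, and its part in the stage differences given here, was not tested.

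The number of the 9 genes that passed limma's test at an adjusted p under 0.05 was read against the share of all tested genes that did so, and likewise the number whose libraries did not overlap between 2 groups. Between pre-B and pro-B cells 5 of the 9 passed in WT mice, where 40.2% of all genes passed, and the same 5 in Sirt7-/- mice, where 35.7% passed. Libraries did not overlap for 6 of 9 genes in either genotype, against 72.6% of all genes in WT and 69.8% in Sirt7-/- mice, so these counts stand near their background.

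Between Sirt7-/- and WT cells 0 of 9 passed in pro-B cells (0.0623% of all genes) and 0 of 9 in pre-B cells (0.085%) with limma. An unadjusted p under 0.05 was reached by 1 of the 9 in each, Cish in pro-B (5.94% of all genes) and Jak3 in pre-B cells (13.6%). Libraries did not overlap for 4 of 9 genes in pro-B (39.3% of all genes) and 6 of 9 in pre-B cells (41.4%). On the recovered reads edgeR called 0 in both, and DESeq2 called 0 in pro-B cells and 1, Jak3, in pre-B cells. The interaction of stage and genotype gave 0 of 9 with limma (0.00567% of all genes), 1 at an unadjusted p under 0.05, Jak3 (5.43%), 0 with edgeR and 1 with DESeq2, again Jak3.

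Among the Pax5-/- cells 1 of 9 passed with Pax5 WT against EV (3.25% of all genes) and 1 with K198Q against EV (0.922%), Il7r in both. K198R against EV gave 1, Stat5b (9.92%). K198R against Pax5 WT gave 1 (2.87%) and K198R against K198Q gave 1 (5.01%), again Il7r. K198Q against Pax5 WT gave 0 with limma (0.0225%) and 0 at an unadjusted p under 0.05 (3.46%). Libraries did not overlap for 3, 4 and 4 of the 9 genes with Pax5 WT, K198Q and K198R against EV, where 42.6%, 34.2% and 46.8% of all genes did not. The counts were 0 for K198Q against Pax5 WT (28.7%), 4 for K198R against Pax5 WT (38.4%) and 3 for K198R against K198Q (43.1%). With the replicate number as a block limma called 6 of the 9 for K198R against EV (2834 of all genes), 3 against Pax5 WT (1004) and 4 against K198Q (1749).

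In the cultured cells Sirt7-/- EV against WT EV gave 1, Il7r (0.557% of all genes). Within Sirt7-/- cells Pax5 WT against EV gave 0 with limma (0.0366%) and 2 at an unadjusted p under 0.05, Jak3 and Pim1 (9.91%). K198R against EV gave 2, Il7r and Pim1 (4.83%), and K198R against Pax5 WT gave 1, Il7r (0.425%). In that order of comparisons, libraries did not overlap for 4, 5, 6 and 6 of the 9 genes, against 34.6%, 38.7%, 49.6% and 37.7% of all genes. With the replicate number as a block Pax5 WT against EV gave 1 (268 of all genes), K198R against EV 3 (1588) and K198R against Pax5 WT 2 (314).

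**Figure D1:**
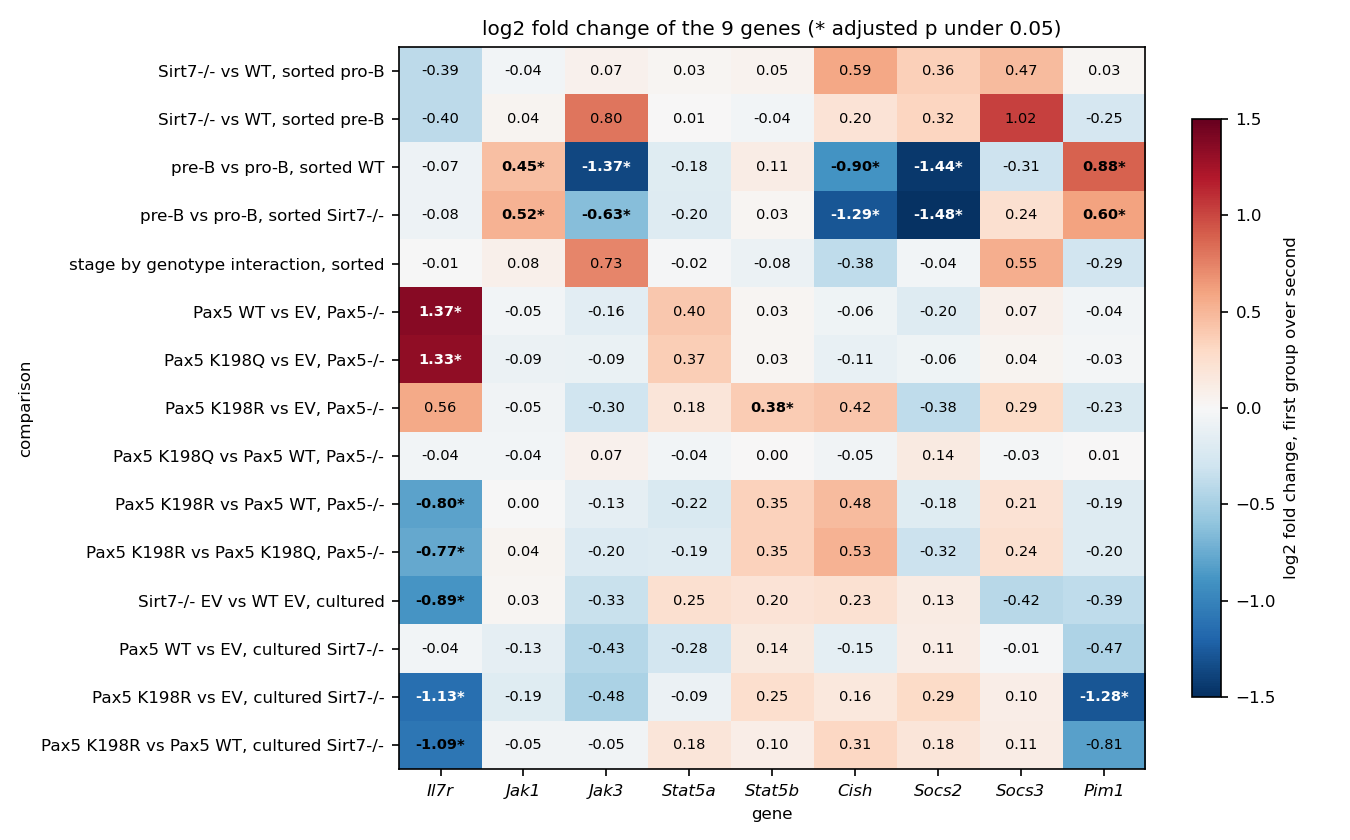
Log2 fold change (colour and printed value, first group over second) of each of the 9 genes in each of the 15 comparisons, from limma on log2(normalized count + 1); an asterisk marks an adjusted p under 0.05. Il7r carries an asterisk in 7 comparisons of cultured cells and in 0 of those of sorted cells, and the 5 genes marked between the stages are Jak1, Jak3, Cish, Socs2 and Pim1 in both genotypes.

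Levels of different genes were set side by side only per kb of exonic sequence, as normalized counts divided by the length of the gene's merged exons. In sorted WT pro-B cells Il7r was the most abundant of the 9 on that scale, at a mean of 4462 per kb, followed by Pim1 (2267), Jak1 (1580), Jak3 (1364), Stat5b (966), Stat5a (478), Socs2 (179), Cish (50.0) and Socs3 (35.0). The libraries of neighbours in that order did not overlap. The order was different in culture. In Pax5-/- cells with EV Pim1 (6453 per kb) and Socs2 (2293) led, and Il7r, at 276 per kb, was among the lowest by its mean, above Stat5a (175), while its libraries lay between those of Socs3 (406 and 262). In cultured WT cells with EV Pim1 (6252) and Il7r (2283) led, ahead of Socs2 (1637), and the libraries of Cish (846) overlapped those of Jak3 (773).

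Il7r, the receptor chain that gives the pathway its specificity, differed between the Pax5 forms and between Sirt7-/- and WT cells in culture, and no difference by stage was detected in sorted cells. WT pro-B cells held 19404 and 22206 normalized counts and WT pre-B cells 16274 and 23977, and the Sirt7-/- cells held 16139 and 15516 as pro-B and 14147 and 15877 as pre-B. The WT libraries lay above the Sirt7-/- libraries at both stages without overlap. The differences of -0.39 (SE 0.178, adjusted p = 0.870) in pro-B and -0.40 (adjusted p = 0.394) in pre-B cells on the log2 scale did not pass limma's test. The 95% interval for pre-B cells ran from -0.82 to 0.02, and that for the difference between WT stages from -0.49 to 0.35.

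Il7r stood at 1286 and 1293 in Pax5-/- cells with EV, at 3614 and 3058 with Pax5 WT, at 3758 and 2796 with K198Q and at 2019 and 1800 with K198R. The K198R libraries lay between EV and the other forms without overlap. Against EV the increase was 2.58-fold with Pax5 WT (log2 1.37, SE 0.154, adjusted p = 0.00414, limma) and 2.51-fold with K198Q (log2 1.33, adjusted p = 0.00880), whereas the 1.48-fold difference with K198R did not pass (adjusted p = 0.0628) without the replicate block and passed with it (adjusted p = 0.00614). K198R lay below Pax5 WT by 0.80 on the log2 scale (adjusted p = 0.0393) and below K198Q by 0.77 (adjusted p = 0.0328). K198Q and Pax5 WT overlapped, with a difference of -0.04 and an interval from -0.39 to 0.32. These comparisons share libraries, and the EV libraries serve all 3 forms. Leaving out any 1 of the 4 libraries compared kept Il7r past the threshold for Pax5 WT against EV, but not for K198R against Pax5 WT in any of the 4 cases, where the adjusted p ran from 0.0502 to 0.250. K198Q against EV lost its call without EV replicate 1, EV replicate 2 or K198Q replicate 1 (adjusted p up to 0.0775), and K198R against K198Q without either K198Q library or K198R replicate 2 (up to 0.169).

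Markers of other cells moved with these groups too. The sum of 6 NK cell genes, led by Il2rb, was 1468 and 1522 with EV, 454 and 477 with Pax5 WT, 869 and 848 with K198Q and 282 and 170 with K198R, while Ncr1 and Gzmb were at 0 in all 8 libraries. The sum of 8 myeloid genes, led by Itgam, was 1060 and 803 with EV, 506 and 522 with Pax5 WT, 773 in each K198Q library and 663 and 438 with K198R, with S100a9 at 0 throughout. With K198R against EV, 2 of 4 tested NK cell genes, 2 of 5 myeloid and 2 of 5 T cell genes fell, and 1 myeloid gene rose. With Pax5 WT 2 NK cell genes fell and 1 myeloid gene rose, and with K198Q 0 genes of these 3 lists passed in limma. The T cell sum, led by Lck, ran from 2317 to 3795, and the stromal sum, led by Fn1, from 2518 to 6552 with overlapping groups. Of 9 stromal genes 1 fell with Pax5 WT, 1 with K198R and 0 with K198Q against EV. K198R was also lower in 1 of the 9 against Pax5 WT and in 1 against K198Q. The study lists Nkg7 among lineage-inappropriate genes that Pax5 represses in these pro-B cells, and Il2rb among genes repressed with K198R. Whether this RNA came from other cells or from the pro-B cells themselves was not tested. Its part in the levels of the 9 genes was not tested either.

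In the third table Il7r stood at 10843 and 10445 in WT cells with EV and at 5361 and 6155 in Sirt7-/- cells with EV, a 1.85-fold lower level without overlap (log2 -0.89, SE 0.117, adjusted p = 0.0234, limma). Sirt7-/- cells given Pax5 WT held 5301 and 5873, overlapping those with EV (log2 -0.04, interval -0.31 to 0.23). With Pax5 K198R Il7r stood at 2431 and 2834, a fall of 2.19-fold against EV (log2 -1.13, adjusted p = 0.00456) and of 2.13-fold against Pax5 WT (log2 -1.09, adjusted p = 0.0195). The K198R libraries lay below every other library of that table. The difference from EV passed without each of the 4 libraries in turn, with an adjusted p of at most 0.0358. The Sirt7-/- against WT difference and the K198R against Pax5 WT difference lost their calls without any 1 of their 4 libraries, with adjusted p up to 0.158 and 0.113.

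**Figure D2:**
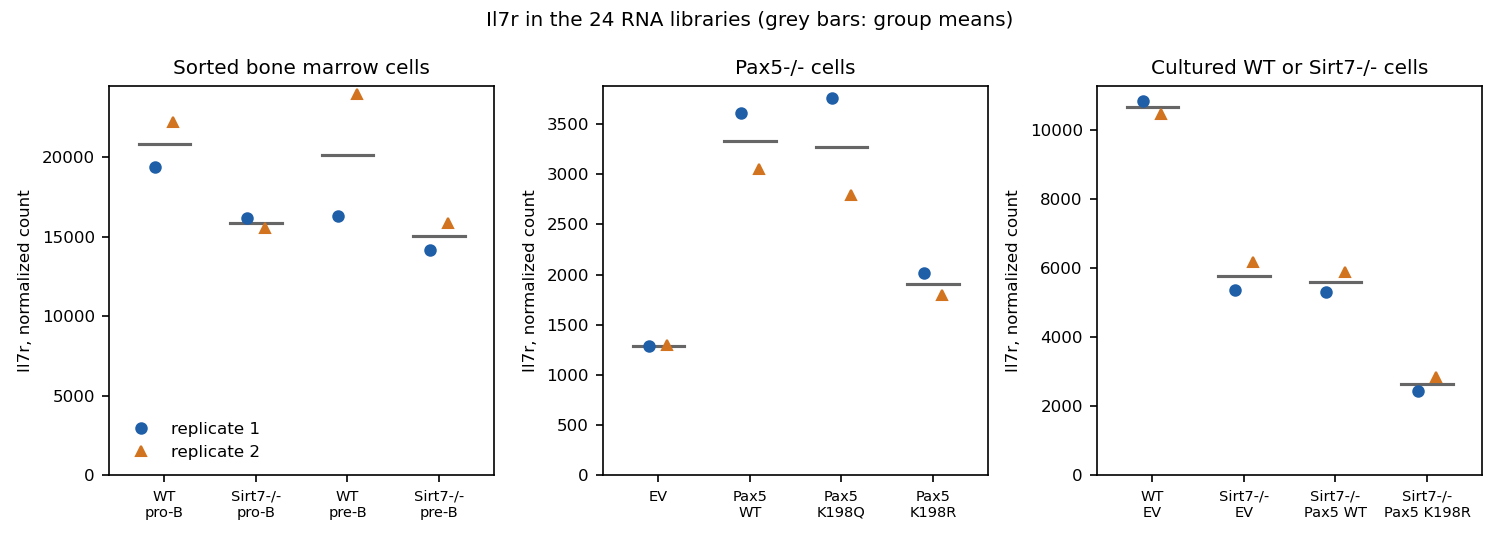
Il7r in normalized counts (linear axes from 0, a scale of its own for each table) in each of the 24 libraries; circles are replicate 1, triangles replicate 2 and grey bars the mean of the 2. Sorted cells lie between 14147 and 23977, Pax5-/- cells between 1286 and 3758, and cultured cells fall from 10843 and 10445 with WT EV to 2431 and 2834 with Sirt7-/- Pax5 K198R.

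Other cell markers moved with some of the groups of the third table. There the sum of 6 pre-B markers was 3428 and 3262 with WT EV, 4821 and 8246 with Sirt7-/- EV, 7369 and 13096 with Pax5 WT and 11389 and 28158 with K198R. Cd22 led that sum in 5 of the 8 libraries, whereas Il2ra, another of the 6, stood at 1587 and 1050 with WT EV and at 74.7 and 79.2 with K198R. The sum of 9 stromal genes, led by Fn1, was 10153 and 8907 with WT EV, 7432 and 11764 with Sirt7-/- EV, 11833 and 29764 with Pax5 WT and 9176 and 22509 with K198R. The sum of the 6 T cell genes listed in that table, of 10 on the list, was 6268 and 3956 with WT EV, 4615 and 2345 with Sirt7-/- EV, 2087 and 722 with Pax5 WT and 1412 and 629 with K198R. Its most abundant genes were Lat and Thy1, and Cd3d was at 0 in 6 of these 8 libraries. Whether this RNA came from other cells, and its part in the Il7r levels, was not tested.

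No Pax5 peak of any of the 6 lists lay over Il7r or within 10 kb upstream. The nearest one, 19.0 kb upstream of the start and in no gene, was found in both lists of Pax5 WT (6.64-fold and 7.75-fold over input) and both lists of K198R (5.16-fold and 9.63-fold). In the 2 K198Q lists the nearest peaks were 905 kb and 66.6 kb away. The middle of that upstream peak is shown because it is the peak closest to Il7r in these lists. It reads 5′ to 3′ on the strand of Il7r (minus), at chr15:9549068-9549317 of GRCm38, with its match to TTCNNNGAA in capitals. The match lies inside the peak of Pax5 WT replicate 2 and of both K198R lists and outside the shorter peak of Pax5 WT replicate 1.
Il7r distal peak: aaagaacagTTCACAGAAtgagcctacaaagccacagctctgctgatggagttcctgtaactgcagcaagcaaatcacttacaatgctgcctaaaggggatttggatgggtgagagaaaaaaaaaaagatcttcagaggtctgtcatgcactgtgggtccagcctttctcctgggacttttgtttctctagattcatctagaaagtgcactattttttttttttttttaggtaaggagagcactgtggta
The window also holds 0 matches to GCGTGAC, the core of the motif that Pax5 is known to bind, on either strand. A match describes these letters only.

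The receptor's kinases moved in opposite directions between the stages. Jak1, which is shared by many cytokine receptors, stood at 10361 and 12473 in WT pro-B and 15223 and 15743 in WT pre-B cells, and at 10505 and 11711 against 15755 and 16102 in Sirt7-/- mice. The pre-B libraries were above the pro-B libraries in both genotypes, by 1.36-fold in WT (log2 0.45, SE 0.107, adjusted p = 0.0159) and 1.44-fold in Sirt7-/- cells (log2 0.52, adjusted p = 0.0103, limma). The WT difference lost its call without 3 of its 4 libraries (each WT pre-B library and WT pro-B replicate 1; adjusted p up to 0.0814), and the Sirt7-/- one without pro-B replicate 1 (adjusted p = 0.0635). In culture Jak1 was the steadiest of the 9, between 4497 and 5023 in Pax5-/- cells and between 3761 and 4525 in the third table.

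Jak3, which is found mainly in blood cells and pairs with the common gamma chain, was lower in pre-B cells. WT pro-B cells held 7553 and 7048 and WT pre-B cells 3036 and 2638, a 2.58-fold lower level (log2 -1.37, SE 0.111, adjusted p = 0.000287). Sirt7-/- pro-B cells held 7522 and 7765 and Sirt7-/- pre-B cells 5285 and 4584, a 1.55-fold lower level (log2 -0.63, adjusted p = 0.00561). Jak3 in Sirt7-/- pre-B cells was thus above WT pre-B cells without overlap, by 0.80 on the log2 scale (interval 0.54 to 1.06), a difference that limma did not call over all genes (adjusted p = 0.0776) and DESeq2 on the recovered reads did (adjusted p = 1.53e-06). The test of whether the stage difference itself changed with genotype gave a log2 difference of 0.73 (SE 0.157) with an adjusted p of 0.648 in limma and 0.0260 in DESeq2. The Sirt7-/- pre-B replicate 2 library also carried more erythroid RNA than its partner, 45879 against 5177 summed over 5 genes led by Hba-a1, and more NK cell RNA, 1360 against 184 over 6 genes led by Il2rb. Jak3 in that library was the lower of the 2. The sum of 8 myeloid genes was 11548 and 10730 in Sirt7-/- against 15226 and 14901 in WT pre-B cells (median log2 -1.20). In limma 0 of these 8 and 0 of 10 T cell genes passed (T cell median log2 0.83). The 6 pro-B markers had a median difference of 1.15 on the log2 scale between Sirt7-/- and WT pre-B cells, against 0.02 over all genes, and 0 of the 6 passed limma's test. Dntt stood at 423 and 3838 against 131 and 157, Vpreb1 at 982 and 3268 against 288 and 348, and Igll1 at 1324 and 4122 against 494 and 926. Cd93, another of the 6, went the other way without overlap, at 51453 and 53739 against 67379 and 71258. The libraries of Kit and Spn overlapped between the genotypes. Whether this RNA came from other cells, and its part in the level of Jak3, was not tested.

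Across the Pax5-/- cells Jak3 ran from 6548 and 6505 with EV to 5354 and 5279 with K198R, with Pax5 WT at 5499 and 6183 and K198Q at 5884 and 6350. The K198R libraries lay below all others (log2 -0.30 against EV, adjusted p = 0.0881, and 0.0191 with the replicate block). In the third table Jak3 was highest with WT EV (4391 and 3885), then Sirt7-/- EV (3791 and 2843), and lowest with Pax5 WT (2624 and 2264) and K198R (2641 and 2096). The differences in Jak3 in that table did not pass limma's test, with adjusted p of 0.658 for Sirt7-/- EV against WT EV, 0.181 for K198R against EV (0.0133 with the replicate block) and 0.469 for Pax5 WT against EV.

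**Figure D3:**
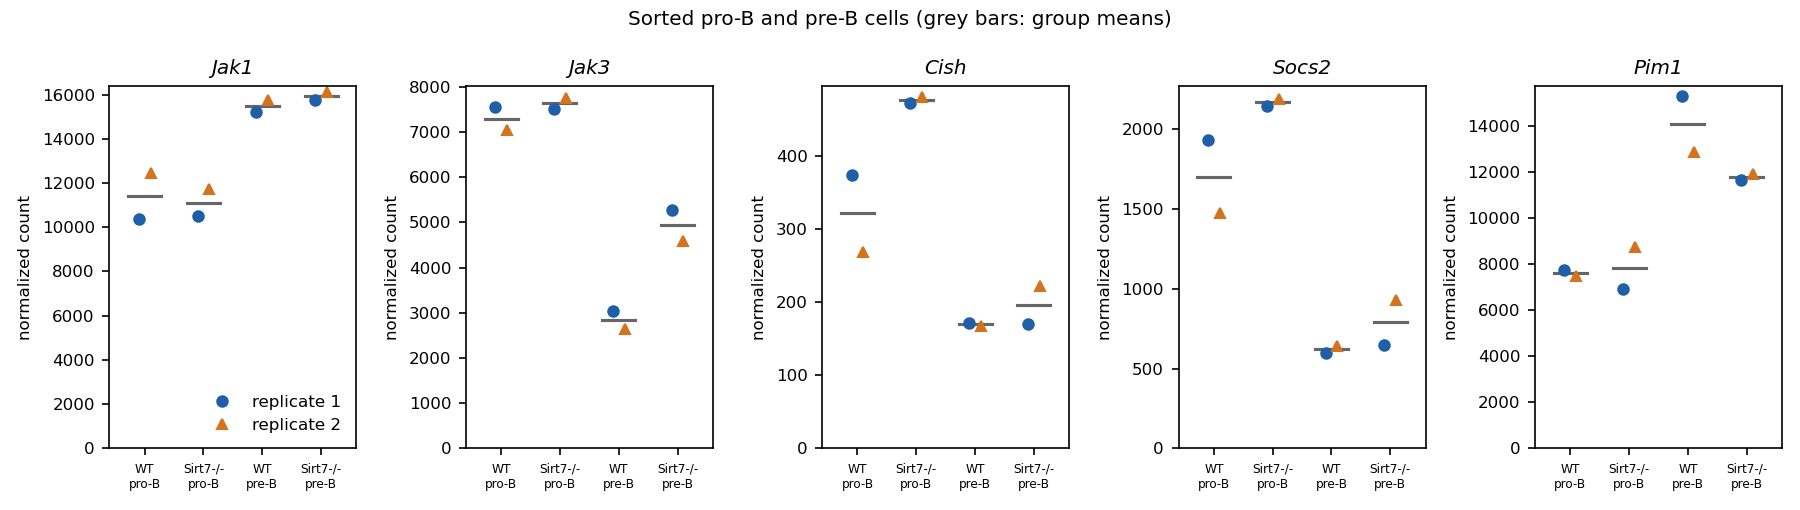
Normalized counts (linear axes from 0) of the 5 genes that passed the test between stages, in the 8 libraries of sorted cells; circles are replicate 1, triangles replicate 2 and grey bars the group means. Jak1 and Pim1 are higher and Jak3, Cish and Socs2 lower in pre-B cells, and the Sirt7-/- pre-B libraries of Jak3 (5285 and 4584) lie above those of WT (3036 and 2638).

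Stat5a and Stat5b, neighbours on chromosome 11 whose proteins are close relatives, varied little. Of the 31-base stretches in their exons, 11.7% of those of Stat5a and 15.2% of those of Stat5b also occur in other genes, mainly in each other, so that their split counts are less certain. Across the 8 sorted libraries Stat5b ran from 5240 to 6074 and Stat5a from 2667 to 3815, a spread of 1.16 and 1.43 times between the highest and lowest library. Neither passed a test by stage or genotype.

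Stat5b stood, in Pax5-/- cells, at 2156 and 2322 with EV, 2323 and 2243 with Pax5 WT, 2229 and 2342 with K198Q and 2978 and 2845 with K198R. It rose 1.30-fold with K198R against EV (log2 0.38, SE 0.0892, adjusted p = 0.0360, limma), and the call was lost without any 1 of the 4 libraries (adjusted p 0.0841 to 0.182). K198R also lay above Pax5 WT without overlap, by 0.35 on the log2 scale (adjusted p = 0.102), which passed with the replicate block (adjusted p = 0.0267), as did the difference from K198Q (adjusted p = 0.0184). Stat5a stood at 1195 and 1296 with EV and at 1687 and 1603 with Pax5 WT and 1651 and 1559 with K198Q, differences of 0.40 and 0.37 on the log2 scale that did not pass over all genes (adjusted p = 0.176 and 0.462). With K198R the libraries of Stat5a, 1579 and 1253, overlapped EV. In the third table Stat5a ran from 1141 to 1619 and Stat5b from 1652 to 2502, and 0 of their differences passed the test in limma; at an unadjusted p under 0.05 there were also 0.

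The feedback genes showed the widest gap between sorted and cultured cells. As CPM, the normalized count scaled by the library's total, Cish ran from 3.06 to 9.36 in the sorted cells, from 127 to 336 in Pax5-/- cells and from 95.2 to 318 in the third table. Socs2 ran from 11.1 to 42.7, from 480 to 826 and from 481 to 764, and Socs3 from 1.16 to 4.63, from 25.5 to 55.1 and from 9.81 to 33.8. For each of the 3, every cultured library lay above every sorted library. Jak1, by contrast, ran from 205 to 293 in sorted and from 132 to 171 in cultured cells. Culture with added IL-7, transduction and table, and for Pax5-/- cells also strain, source tissue and the loss of Pax5, cannot be told apart here, and no test was made.

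Cish, a cytokine-induced SH2 protein that binds phosphorylated receptors, was lower in pre-B cells. It stood at 374 and 269 in WT pro-B, 171 and 167 in WT pre-B, 472 and 480 in Sirt7-/- pro-B and 171 and 222 in Sirt7-/- pre-B cells. The pre-B level was 1.87-fold lower in WT (log2 -0.90, SE 0.228, adjusted p = 0.0193) and 2.44-fold lower in Sirt7-/- cells (log2 -1.29, adjusted p = 0.00598, limma). The WT call was lost without 3 of its 4 libraries (each WT pre-B library and WT pro-B replicate 1; adjusted p up to 0.108). Both Sirt7-/- pro-B libraries lay above both WT pro-B libraries, by 0.59 on the log2 scale (adjusted p = 0.825).

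In culture the spread between replicates of Cish was larger than any difference between groups. Replicate 1 lay above replicate 2 in all 4 groups of Pax5-/- cells, by 1.47 to 2.05 times, and in all 4 groups of the third table, by 1.72 to 2.78 times. With EV, Pax5-/- cells held 7576 and 4343 and WT cells 7985 and 2872. The share of all tested genes with replicate 1 above replicate 2 in all 4 groups was 22.5% and 18.3% in those tables. The groups of Cish overlapped in every comparison in culture, and the largest difference, 0.53 for K198R against K198Q, had an interval from -0.43 to 1.48. With the replicate number as a block, which takes out a shift shared by same-numbered libraries, Cish passed limma's test for K198R against EV (log2 0.42, adjusted p = 0.0256), Pax5 WT (0.48, adjusted p = 0.0325) and K198Q (0.53, adjusted p = 0.0151) in Pax5-/- cells.

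Socs2, a suppressor of cytokine signalling best known for limiting growth hormone responses, was lower in pre-B cells in both genotypes. WT pro-B cells held 1929 and 1474 and WT pre-B cells 597 and 644, and Sirt7-/- cells held 2146 and 2190 as pro-B and 649 and 928 as pre-B. The falls were 2.72-fold (log2 -1.44, SE 0.203, adjusted p = 0.00178) and 2.79-fold (log2 -1.48, adjusted p = 0.00231, limma), and the difference between these falls was -0.04 with an interval from -0.72 to 0.64 (log2). Each call held without each of the 4 libraries in turn. Socs2 ran in Pax5-/- cells from 14641 to 23850 and in the third table from 14518 to 21246. With K198R both libraries lay below those with EV in Pax5-/- cells (19208 and 14641 against 23753 and 19951) and above them in Sirt7-/- cells (20337 and 21246 against 18442 and 15653), and neither passed (log2 -0.38, adjusted p = 0.301, and log2 0.29, adjusted p = 0.234). With the replicate block the first passed (adjusted p = 0.00444), as did K198R against K198Q in Pax5-/- cells (log2 -0.32, adjusted p = 0.0150).

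Socs3, an inhibitor of JAK kinases on receptors that signal through gp130, stood between 62.7 and 237 normalized counts in sorted cells. Per kb it was the scarcest of the 9 in sorted WT pro-B cells. In pre-B cells of both genotypes Cish was the scarcest by its mean per kb (26.4 in WT and 30.6 in Sirt7-/-). Both Sirt7-/- pre-B libraries of Socs3 (70.1 and 47.4 per kb) lay above those of Cish (26.6 and 34.6). In WT pre-B cells the libraries of Socs3 (21.7 and 36.7) and Cish (26.7 and 26.1) overlapped. Replicates of Socs3 differed widely in culture, where WT cells with EV held 969 and 323. The 0 calls in 15 comparisons with limma came with 0 at an unadjusted p under 0.05. The largest difference, 1.02 on the log2 scale for Sirt7-/- against WT pre-B cells, had an interval from -0.21 to 2.25.

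**Figure D4:**
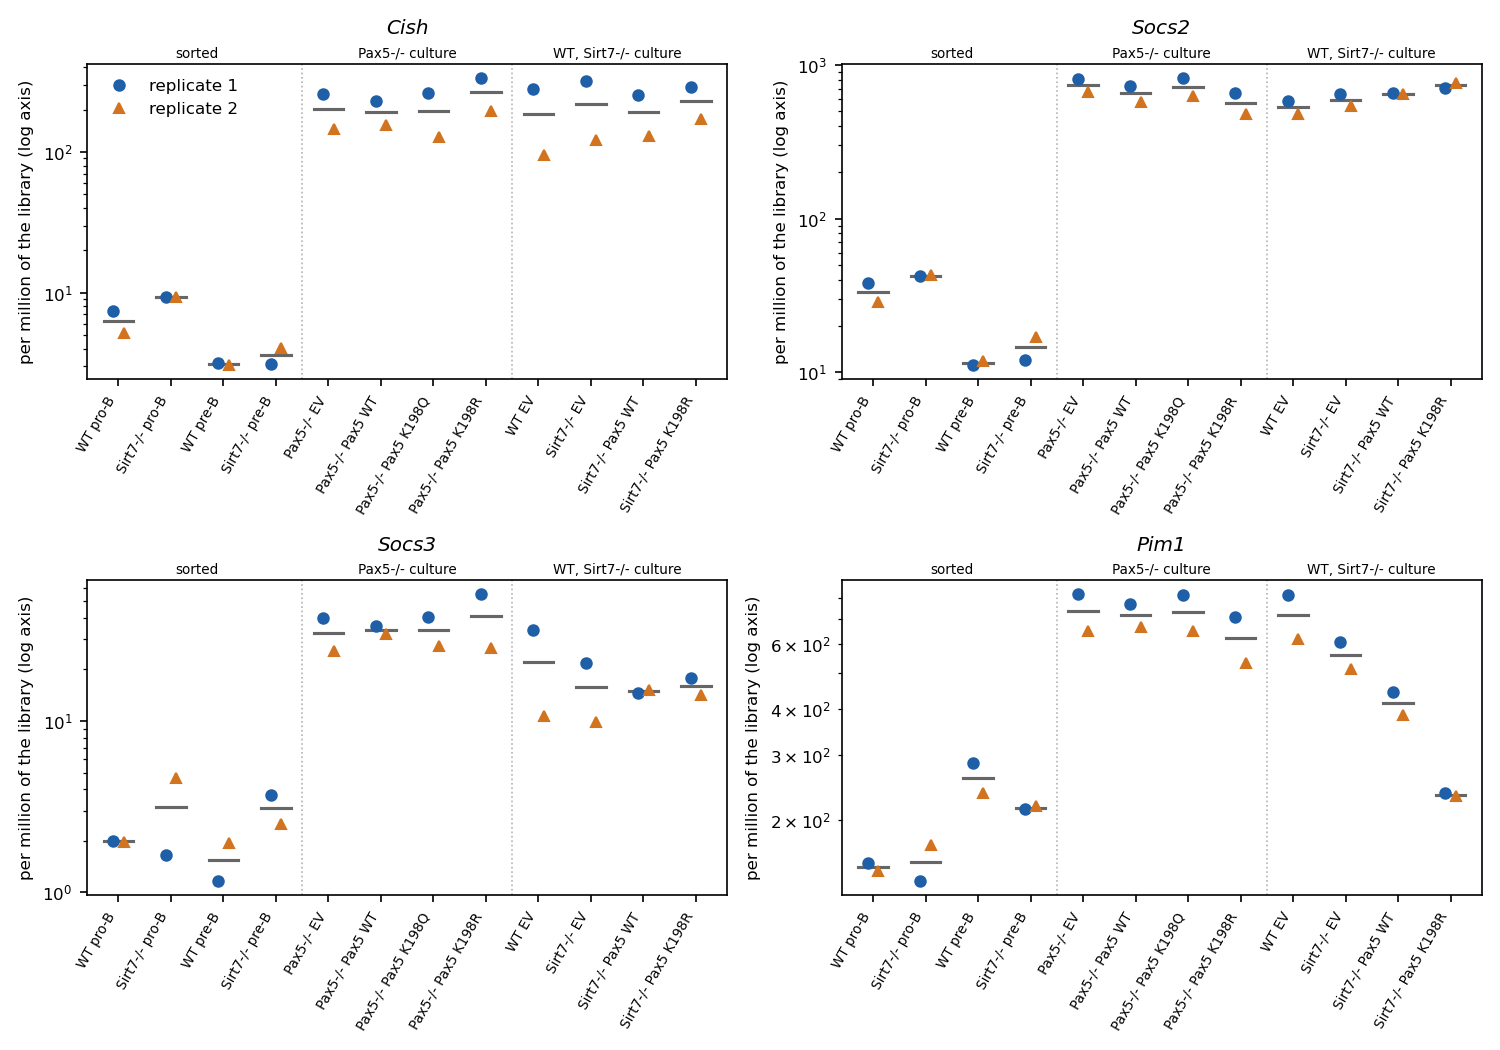
Cish, Socs2, Socs3 and Pim1 as CPM of each library (log axes) in the 12 groups, with sorted cells at the left, Pax5-/- cells in the middle and cultured WT and Sirt7-/- cells at the right; circles are replicate 1, triangles replicate 2 and grey bars the means. Every cultured library of Cish, Socs2 and Socs3 lies above every sorted one, replicate 1 of Cish lies above replicate 2 in all 8 culture groups, and Pim1 is lowest among cultured cells with Sirt7-/- Pax5 K198R.

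Pim1, whose transcription STAT5 is known to drive, went the other way from Cish and Socs2 between the stages. It stood at 7742 and 7501 in WT pro-B and 15338 and 12905 in WT pre-B cells, a 1.85-fold rise (log2 0.88, SE 0.132, adjusted p = 0.00226). In Sirt7-/- mice it stood at 6941 and 8750 in pro-B and 11670 and 11934 in pre-B cells, a 1.51-fold rise (log2 0.60, adjusted p = 0.0132, limma), lost without pre-B replicate 1 (adjusted p = 0.0539) or pro-B replicate 1 (adjusted p = 0.0641). With the Pax5 forms in Pax5-/- cells it ran from 16224 to 24049, and K198R against EV (log2 -0.23) passed with the replicate block alone (adjusted p = 0.0392). In the third table Pim1 stepped down through the groups: 23342 and 18694 with WT EV, 17230 and 14821 with Sirt7-/- EV, 12407 and 10767 with Pax5 WT and 6719 and 6442 with K198R.

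None of these 4 groups of Pim1 overlapped with another. The fall with K198R against EV in Sirt7-/- cells was 2.43-fold (log2 -1.28, SE 0.139, adjusted p = 0.00530, limma) and the difference between K198R and Pax5 WT was -0.81 (adjusted p = 0.0636, and 0.00769 with the replicate block). The steps from WT EV to Sirt7-/- EV (log2 -0.39, adjusted p = 0.394) and from EV to Pax5 WT (log2 -0.47, adjusted p = 0.310) did not pass, the latter reaching 0.0491 with the block. Without K198R replicate 2 the adjusted p of the fall against EV was 0.0527. An antisense gene, Gm26885, overlaps 14.5% of the exonic bases of Pim1, and 11.5% of those of Cish lie under other genes. Jak3 shares 7.55% of its exonic bases with a gene on the same strand, and 8.29% of its 31-base stretches also occur in other genes. The library prep marks strand, and whether the counting used it is not given in the sources used here.

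Pax5 peaks over the 9 genes were read in the 6 lists, called by the authors in each replicate. Pax5 WT had 10646 and 11830 peaks, K198Q 3750 and 3957, and K198R 12158 and 13997. With Pax5 WT, 6 of the 9 genes had a peak in both replicates, where 27.6% of 21938 protein-coding genes did. With K198R 7 of the 9 did (31.6%), and with K198Q 2 of the 9, Socs2 and Pim1 (10.3%). Cish, Socs2 and Socs3 were among them with Pax5 WT and with K198R, and Il7r had 0 peaks in any list. Requiring a fold enrichment of at least 5 left 3 genes with Pax5 WT (18.3% of protein-coding genes), 1 with K198Q (6.24%) and 5 with K198R (21.1%). The lists differ in the number of peaks, so the count for each form is read against its own background. No test was made.

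Socs2 had 5 peak sites, the most of the 9 genes. A peak at its start, at chr10:95416571-95417274, was in all 6 lists (3.96-fold to 10.2-fold), and further ones lay 1.5 kb (5 lists), 19.5 kb (both lists of Pax5 WT and K198R, 5.09-fold to 9.89-fold) and 27.9 kb (5 lists, up to 12.8-fold) into the gene, in introns or its UTR, besides one 0.9 kb upstream in a single K198R list. Pim1 had a peak at its start in 5 lists (4.76-fold to 8.51-fold), absent only from replicate 1 of Pax5 WT. Cish had one 0.7 kb into the gene in 5 lists (up to 6.82-fold), absent from K198Q replicate 2. Socs3 had one 0.7 kb into the gene in both lists of Pax5 WT and K198R (3.86-fold to 5.94-fold) and 2 upstream at 4.9 kb and 6.3 kb. The upstream pair was in both K198R lists and in replicate 2 of Pax5 WT. Socs3, Cish and Pim1 each had 1 more site, in a single K198R list. The median peak of a list was at most 5.83-fold over input.

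Stat5a and Stat5b had 4 sites each, of which they share 3, and Jak1 and Jak3 had 2 each. Stat5b had one at its start (2.93-fold to 7.27-fold in both lists of Pax5 WT and K198R), which also counts for Stat5a, since it lies 8.7 kb upstream of that gene. The other shared sites were in a single K198R list each (4.88-fold and 3.48-fold). Stat5a also had one 16.6 kb into the gene, in an exon, in a single Pax5 WT list (6.01-fold). Stat5b had one 7.3 kb into the gene, in an intron, in 1 list of Pax5 WT (4.51-fold) and 1 of K198R (4.25-fold). Jak3 had one 4.5 kb upstream in the same 4 lists (5.37-fold to 7.55-fold), over the neighbouring gene Unc13a, and one 13.2 kb into the gene in a single Pax5 WT list (5.61-fold). Jak1 had peaks in single lists only, one at the start in K198R replicate 2 and one 0.7 kb into the gene in Pax5 WT replicate 2. At K198Q, 0 lists held a peak over Jak1, Jak3, Stat5a, Stat5b or Socs3.

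**Figure D5:**
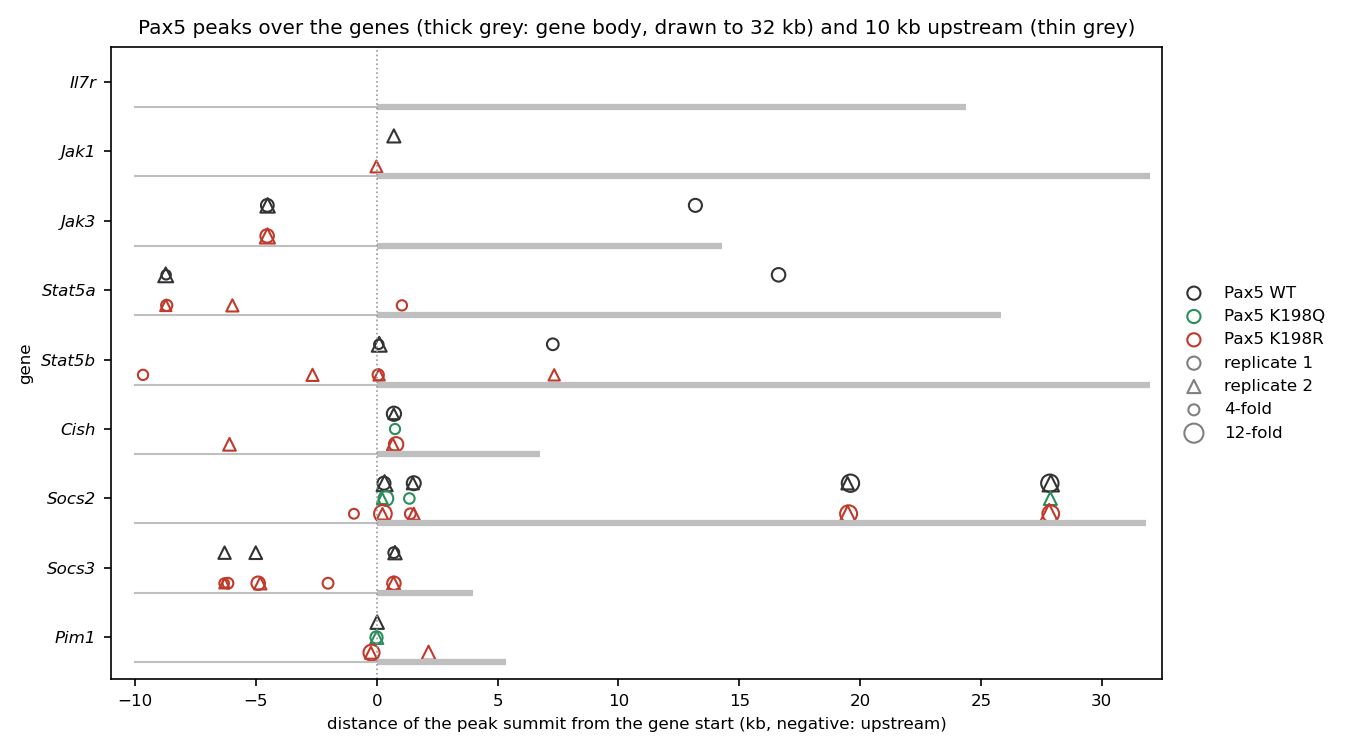
Pax5 peaks over the 9 genes by distance of the summit from the gene start (x axis in kb, negative is upstream); black, green and red stand for Pax5 WT, K198Q and K198R, circles for replicate 1 and triangles for replicate 2, and a marker's area grows with the fold enrichment over input. Il7r has 0 peaks in its window, Socs2 has peaks at 0.3, 1.5, 19.5 and 27.9 kb and one upstream, and green markers appear only at Cish, Socs2 and Pim1.

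The peaks were searched for the letters that STAT5 and Pax5 are known to bind. TTCNNNGAA, which reads the same on both strands, occurred in 5 of 11 and 6 of 12 of the peaks over the 9 genes in the lists of Pax5 WT, 2 of 4 and 1 of 3 for K198Q, and 6 of 15 and 5 of 16 for K198R, where between 8.50% and 10.4% of all peaks of a list held it. GCGTGAC, searched on both strands, occurred in at most 2 of these peaks per list, where between 6.56% and 9.42% of all peaks held it. The peaks over the 9 genes had a median length of 327 bases, against 284 to 318 in the lists. Several of them are the same site seen in several lists, 22 distinct sites in all, so that these counts are not independent. The stretches below were chosen because they hold the matches of the sites near the starts of Cish, Socs2 and Socs3; the sites 0.7 kb into Jak1, 16.6 kb into Stat5a, 0.9 kb upstream and 19.5 kb into Socs2 and 6.3 kb upstream of Socs3 held 1 match each and are not shown. Each is read on the gene's own strand of GRCm38 with TTCNNNGAA in capitals. They lie at chr9:107296654-107296683 and chr9:107296762-107296791 for Cish (plus strand, UTR in GENCODE M21), chr10:95416899-95416928 for Socs2 (minus strand, intron), and chr11:117969502-117969530 and chr11:117969229-117969257 for Socs3 (minus strand, intron).
Cish pair 1: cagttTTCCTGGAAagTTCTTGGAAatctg
Cish pair 2: ggTTCTAGGAAgatgaggcTTCCGGGAAgg
Socs2 pair: gcggaTTCCTGGAAagTTCCTGGAAagcgg
Socs3 match 1: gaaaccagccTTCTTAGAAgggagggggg
Socs3 match 2: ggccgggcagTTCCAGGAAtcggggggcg
The first pair of Cish and the pair of Socs2 share the spacing, 11 bases from first base to first base, and the second pair of Cish is 17 apart. All 4 matches of Cish lay inside the peak of each of the 5 lists that had it, and both of Socs2 in all 6. Both of Socs3 lay inside the peak of each Pax5 WT list. The K198R lists held different ones, Socs3 match 1 alone in replicate 1 and Socs3 match 2 alone in replicate 2. RefSeq places the start of Cish 633 bases and that of Socs3 681 bases further into the gene than GENCODE does, so that by RefSeq these peaks lie at the start.

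The tallest peak over any of the 9 genes, 27.9 kb into Socs2 with up to 12.8-fold enrichment, held neither motif. Its central stretch is shown as the contrast to the pairs above, at chr10:95389184-95389433 of GRCm38 on the strand of Socs2 (minus), in an intron, all in lower case because 0 matches were found.
Socs2 intronic peak 2: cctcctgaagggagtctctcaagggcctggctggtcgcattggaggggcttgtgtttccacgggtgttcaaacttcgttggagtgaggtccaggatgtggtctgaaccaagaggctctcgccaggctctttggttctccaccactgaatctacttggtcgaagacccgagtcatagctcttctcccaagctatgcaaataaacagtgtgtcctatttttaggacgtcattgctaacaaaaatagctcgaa
The one GCGTGAC match in a peak that both replicates of Pax5 WT and K198R shared was upstream of Jak3, at chr8:71671783-71671811 (plus strand), with the match in capitals.
Jak3 match: gagccggagacGCGTGACggggcggggcc
In the 250 bases before the RefSeq start, available for 8 of the 9 genes in 11 windows, TTCNNNGAA occurred in 2, Socs3 (TTCTTAGAA, 154 bases before the start) and Il7r (TTCAGGGAA, 142 bases before), against 7.02% of 32851 such windows. The Socs3 match is the same stretch as Socs3 match 1 in the peaks above. GCGTGAC occurred in 0 of the 11, against 1.78%.

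The rest of the pathway was read from lists of other receptor chains and STATs, negative regulators, reported STAT5 targets, the PI3K-AKT-FOXO arm and reported regulators of Il7r. These lists, like the 9 genes, are described by counts beside the median of all genes. Between the stages in WT mice, of 12 other STAT5 targets 6 rose and 4 fell in pre-B cells (median log2 0.13, against -0.04 over all genes): Pim2 rose (2.72), as did the survival genes Bcl2l1 (1.38) and Mcl1 (1.17), while the growth and cell cycle genes Myc (-3.65), Ccnd2 (-2.63), Ccnd3 (-1.87) and Mycn (-1.51) fell. Of 15 other negative regulators 7 rose and 0 fell (median 0.37), where 40.2% of all genes passed, among them Socs1 (2.73), an inhibitor of JAK kinases, and Ptprc (1.15), Cblb (1.07) and Ptpn1 (1.04). Socs1 rose where Cish and Socs2 fell.

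Of 9 tested receptor chains, kinases and STATs 4 rose and 2 fell in WT pre-B cells: the common gamma chain gene Il2rg (1.08), Stat6 (1.08), Stat3 (0.88) and Tyk2 (0.59) rose, and the growth factor receptors Kit (-4.87) and Flt3 (-4.45) fell. Of 10 genes of the PI3K arm 6 rose and 0 fell (median 0.45), led by Foxo1 (1.09). Of 10 regulators of Il7r 5 rose and 1, Gfi1b (-1.32), fell (median 0.23). In Sirt7-/- mice, where 35.7% of all genes passed, the counts were 4 up and 3 down, 8 and 0, 5 and 2, 6 and 0, and 5 and 0 for the same lists in that order. Their medians were 0.05, 0.58, 0.69, 0.38 and 0.20, against -0.04 over all genes, with Socs1 at 2.92, Pim2 at 2.29 and Myc at -2.21.

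With Pax5 WT in Pax5-/- cells, 3 of 10 regulators of Il7r rose against EV and 0 fell (median 0.06, where 3.25% of all genes passed): Ebf1 (1.28), an early B cell factor, Ets1 (1.22) and Foxo1 (0.71). Among receptors and STATs Flt3 (-0.92) and Stat3 (-0.53) fell, and among negative regulators Ptpn1 (0.67) rose and Ptpn6 (-0.63) fell. With K198Q, where 0.922% of all genes passed, 2 of the 10 regulators rose (median 0.08), Ebf1 (1.02) and Ets1 (0.93), and 0 genes of the receptor, negative regulator and PI3K lists passed in limma. With K198R, where 9.92% of all genes passed, 3 of the 10 rose (median 0.17), Ebf1 (1.34), Ets1 (1.27) and Foxo1 (1.25), while Flt3 (-0.72), Stat3 (-0.71), Pik3r1 (-0.72), Ptpn11 (-0.37) and Mycn (-1.41) fell and Pik3cd (0.42) and Ptpn1 (0.49) rose. Foxo1, a known activator of Il7r, was higher with K198R than with Pax5 WT (0.54, adjusted p = 0.0189) or K198Q (0.80, adjusted p = 0.00475), where Il7r was lower.

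In the cultured cells few other genes of the pathway passed. Sirt7-/- EV cells, with 0.557% of all genes called, were lower than WT EV in Ccnd3 (-0.71, adjusted p = 0.0396), cyclin D3, and higher in Pik3ap1 (0.78, adjusted p = 0.0299), an adaptor of PI3K. With K198R against EV in Sirt7-/- cells (4.83% of all genes) Bcl2l1 rose (0.53, adjusted p = 0.0240) and Pik3r1 fell (-0.59, adjusted p = 0.0280). With limma 0 of the 10 regulators of Il7r passed in any of the 4 comparisons of that table.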

How the data were processed

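The authors quantified RNA-seq reads with Salmon on mm10 with GC correction, imported them with Tximeta and deposited counts per gene normalized by DESeq2's median of ratios, a signal on the scale of counts. For ChIP-seq they aligned reads with Bowtie2, removed duplicates and called peaks with MACS2 over input in each replicate; the deposited lists give each summit's enrichment over input as a ratio (fold) and the q-value as −log10. For the sorted cells, 100% of the values came back as whole reads, within 0.01 of a read. The tools named are also in the labels' processing notes.

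Genes that reached 10 normalized counts in 2 or more of 8 libraries were fitted per table as log2(count + 1) in limma 3.58.1 (R 4.3.3), 4 groups together, with a variance trend and Benjamini-Hochberg adjustment; fold changes are on that scale. A gene was called at an adjusted p under 0.05. With 2 against 2 an exact test of 1 gene cannot go below p = 0.33. edgeR 4.0.16 and DESeq2 1.42.0 were run on recovered reads as alternatives, with other filters, pseudocounts, scalings and left-out libraries. The labels tie the sorted pro-B and pre-B libraries to mice; same-mouse deviations correlated at 0.156 in Sirt7-/- and 0.0798 in WT mice. In the cultures, where the methods place replicates on separate days but no source ties a number to 1 day across groups, same-numbered libraries correlated at 0.264 to 0.383 (Pax5-/-) and 0.156 to 0.428 (the third table) between groups.

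The 9 genes and all lists were chosen with earlier results of these data known. The genes named are the 9 genes, Sirt7 and Pax5, called genes of the other lists, cell markers and, for likeness, up to 3 of the closest genes to each of the 9; Il7, Tslp, Gm26885 and Unc13a were named outside that rule, with their values or positions seen. Gene models are GENCODE M21 (GRCm38); promoter windows are RefSeq's. The 6 input samples were not used here, and per-sample columns left unused number 0. K198R replicate 2 peaks carry another replicate number in their names and were used as labelled. One marker gene, and a sum of markers that holds it, are not reported here.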

Additional observations from a re-analysis of the deposited data

Results flagged for a closer look

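The entries here are genes whose 2 groups of libraries moved one way in one kind of cell and the other way in another under a like contrast, with no overlap between groups; the difference was not tested in any of them, since the tables were normalized separately. For Il7r, K198R against EV gave a log2 fold change of 0.56 in Pax5-/- cells and -1.13 in cultured Sirt7-/- cells. The EV libraries of the first, labelled Pax5-/-, read 2201 and 2103 normalized counts of Pax5, which were not placed inside or outside the deleted part, and those of the second 25995 and 37114. For Socs2 the same contrast gave -0.38 and 0.29.

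For Stat5a, Pax5 WT against EV gave 0.40 in Pax5-/- cells and -0.28 in Sirt7-/- cells, and K198R against Pax5 WT gave -0.22 and 0.18. For Jak3, Sirt7-/- against WT gave 0.80 in sorted pre-B cells and -0.33 in cultured cells with EV. Of these values the Il7r difference in Sirt7-/- cells passed limma's test without the replicate block. With that block the K198R against EV differences of Il7r (adjusted p = 0.00614) and Socs2 (adjusted p = 0.00444) in Pax5-/- cells also passed in limma. DESeq2 on the recovered reads called the Jak3 difference in pre-B cells (adjusted p = 1.53e-06). Groups of 2 libraries do not overlap often: 46.8% of all genes for K198R against EV in Pax5-/- cells and 49.6% in Sirt7-/- cells.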

How the results depend on the processing

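The direction of the 19 calls on the 9 genes held under every alternative run; 218 values kept their side of the threshold and 68 lost it, and the cause was not tested unless named. Adding an absolute log2 fold change of 1.5 leaves 0 calls everywhere by construction, since each was smaller. Fitting only the groups compared, which leaves fewer libraries to estimate the spread, left 0 for K198R against EV, Pax5 WT and K198Q in Pax5-/- cells, and 0 for Sirt7-/- EV against WT EV (all genes from 76 to 0) and K198R against Pax5 WT in cultured cells. No filter on low values left 0 for K198R against Pax5 WT and K198Q and for Sirt7-/- EV against WT EV. Without the variance trend 0 were left for K198Q against EV, each K198R comparison in Pax5-/- cells, Sirt7-/- EV against WT EV and cultured K198R against Pax5 WT; quantile scaling left 0 for K198R against EV. Between WT stages Jak1 lost its call without the trend (adjusted p = 0.0534) and Cish with quantile scaling (0.0652), both in limma. DESeq2 gave 1 (Jak3) for Sirt7-/- against WT pre-B cells and 1 for the interaction, with 728 and 104 genes in all against 15 and 1; for Sirt7-/- against WT pro-B cells it gave 128 genes against 11, and edgeR gave 5 in pre-B cells. Leaving out 1 library gave 3 to 5 calls between stages in each genotype, 1 to 2 for cultured K198R against EV, and 0 to 1 for the comparisons with 1 call except Pax5 WT against EV, which kept Il7r. A fold enrichment of at least 5 left 3 genes with peaks for Pax5 WT and 1 for K198Q.

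With the mouse as a replicate block the stage comparisons gave the same 5 calls in both genotypes and 0 for the interaction. By number, Sirt7-/- against WT gave 7 genes in pre-B cells (from 15) and 0 of the 9. In the cultures the replicate block raised the calls for K198R from 1 to 6 against EV, 1 to 3 against Pax5 WT and 1 to 4 against K198Q in Pax5-/- cells (all genes 1324 to 2834, 383 to 1004 and 668 to 1749). In cultured Sirt7-/- cells it gave 1 for Pax5 WT against EV (from 0), 3 for K198R against EV (from 2) and 2 for K198R against Pax5 WT (from 1), with all genes from 5 to 268, 659 to 1588 and 58 to 314. All genes called also rose from 434 to 1343, 123 to 363, 3 to 29 and 76 to 288 in the other culture comparisons.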

Other observations

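Across the 24 libraries, after the mean of each table was taken off the log2 values, the 8555 genes with at least 100 normalized counts on average in every table were ranked by likeness to each of the 9 genes; this is a description, and the libraries share groups. Il7r was most like Dpp4 (Pearson r 0.864), Mmp13 (0.861) and Tifa (0.837). Socs2 was most like Adam15 (0.965), Vegfa (0.960) and Tbc1d16 (0.956), and Pim1 like Dock8 (0.937), Zfp53 (0.933) and Wdfy3 (0.928). Jak1 was closest to Ndfip2 (0.925), Jak3 to Parp16 (0.928), Stat5b to Prkd2 (0.877), Cish to Phtf1 (0.827), Socs3 to Sh3glb2 (0.815) and Stat5a to Sipa1l1 (0.737). Among the 9 themselves the highest values were those of Socs2 with Cish (0.698), Jak1 with Pim1 (0.651), Jak3 with Socs2 (0.642) and Il7r with Pim1 (0.585), and Jak1 and Socs2 went opposite ways (-0.844).

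Il7, the ligand gene, ran from 0 to 22.1 normalized counts in sorted cells, and Tslp, the other ligand that uses the Il7r chain, from 0 to 13.8. Neither passed the filter on low values there. Il7 passed it in the third table only, and Tslp in none.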
